A study of Mus musculus with 6 samples.

Results

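The genes described are the D cyclins Ccnd1, Ccnd2 and Ccnd3, the E cyclins Ccne1 and Ccne2, the kinases Cdk2, Cdk4 and Cdk6 that these cyclins activate, and the phosphatase gene Cdc25a. They were taken from the deposited expression table by gene name, and all 9 were present among its 54532 genes. RNA was sequenced from mouse cells labelled primary lung fibroblasts, in 3 libraries titled NC and 3 titled calumenin KD. The labels do not spell out NC, and the sample descriptions call the same libraries WT and KO, so whether calumenin was knocked down or knocked out, and by what means, is not settled by the labels. They give no treatment, time, strain, age or clone for either group. The series asks how loss of calumenin, a calcium-binding protein of the secretory pathway encoded by Calu, affects senescence and fibrosis signalling.

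D cyclins are made in response to growth factors and bind Cdk4 or Cdk6, and the resulting kinases phosphorylate the retinoblastoma protein and its relatives. This releases E2F transcription factors, which activate genes for DNA synthesis and the E cyclins, the partners of Cdk2 at the entry into S phase. Cdc25a removes inhibitory phosphates from these kinases, whereas the INK4 proteins block Cdk4 and Cdk6 and the CIP/KIP proteins bind the cyclin-kinase complexes. In fibroblasts the pathway is known for linking serum and adhesion to proliferation, and its arrest is part of senescence.

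Expression was given as FPKM, fragments scaled to the length of the gene and to the depth of the library. For the 9 genes this length was that of all annotated exons together, such as 8775 bases over 21 transcripts for Ccnd3. Orders, sums and shares of levels between genes rest on that length, and which transcripts were in use was not tested. Reads per gene recovered from the FPKM summed to 15907164 to 18312888 per library. Calu had 224 FPKM in NC and 13.4 FPKM in KD on average, and KD cells kept 6.0% of the NC level. Of 10 fibroblast markers 7 reached a mean of 1 FPKM, among them Col1a1, Pdgfra and Vim, while Thy1 and Dcn were near 0 and Lum had 0 reads. No epithelial (of 9) or endothelial (of 6) marker reached a mean of 1 FPKM, and the leukocyte marker Ptprc was near 0. Those that did were 3 of 8 immune markers (Cd14, Cd68 and Lyz2), 1 of 4 mesothelial markers (Msln) and 2 of 7 smooth muscle and pericyte markers (Cspg4 and Des). The mesothelial markers Upk3b, Lrrn4 and Wt1 averaged 0.0349 FPKM or less. Acta2, Tagln, Cnn1 and Myh11 averaged 0.124 FPKM or less, and Rgs5 had 0. The summed immune markers came to 9.47 to 10.3 FPKM in NC and 5.44 to 8.70 FPKM in KD, and their part in the results was not tested. KD1 stood apart from KD2 and KD3: the mean squared difference of read counts, in units of counting error, was 20.5 and 34.3 per gene for KD1 against the others, 4.97 for KD2 against KD3 and 2.39 to 3.49 between NC libraries. Mitochondrial genes took 2.56% of reads in KD1 against 1.60% to 1.97% elsewhere, and results are therefore also given without it. The labels do not say whether replicates were separate cultures or animals, so the spread behind each p-value may be technical. In such bulk samples a change in RNA per cell cannot be told apart from a change in the share of cells that express a gene.

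In the calumenin KD libraries the D cyclin genes Ccnd1 and Ccnd2 and the phosphatase gene Cdc25a fell, by 13.1%, 14.5% and 18.4% of the mean NC level, and the E cyclin gene Ccne1 rose by 25.6%. Ccnd3, Ccne2, Cdk2, Cdk4 and Cdk6 did not pass the test. All 9 genes were expressed highly enough to test, that is, with 1 FPKM or more on average. Of these, 1 was called higher and 3 lower by limma at a Benjamini-Hochberg adjusted p under 0.05, where 10.9% of the 12299 tested genes were called higher, 13.6% lower and 24.5% in either direction. The differences were small: the median absolute log2 difference was 0.15 for the 9 genes and 0.18 for all tested genes, and the signed medians were -0.09 and 0.01. The largest of the 9 differences, that of Ccne1, exceeded 19.4% of those of all called genes. The KD values lay wholly above the NC values for 1 of the 9 genes and wholly below them for 4, and this held for 21.3% and 22.9% of tested genes, or 44.2% together. No gene of the 9 was called in every leave-out of a single library: without NC2, NC3 or KD2 the counts were 0 higher and 0 lower, without NC1 1 and 0, and without KD3 1 and 2. Calls over all 12299 tested genes fell as well, from 3016 with all libraries to 1513, 1632 and 1576 without NC2, NC3 and KD2. They were 1558 without NC1 and 2460 without KD3. Without KD1, 2 of the 9 genes were higher and 4 lower, against a background of 20.9% and 21.5%, or 42.4% together.

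**Figure D1:**
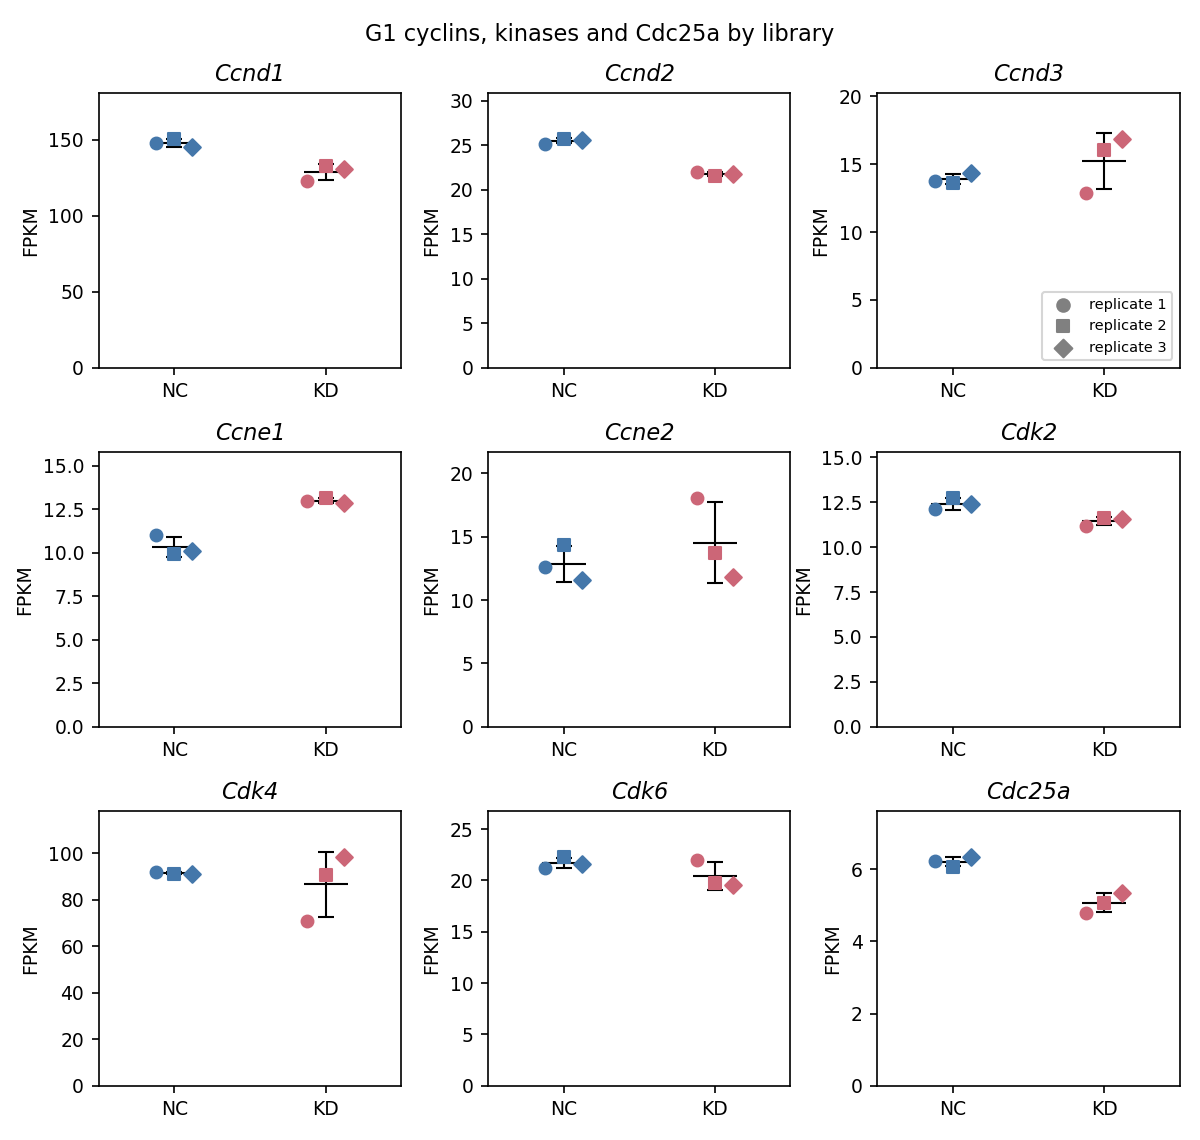
Level in FPKM (vertical axes, from 0) of each of the 9 genes in the 3 NC and 3 KD libraries, with replicates 1, 2 and 3 as circle, square and diamond, and horizontal bars and whiskers for mean and SD. KD lies wholly below NC for Ccnd1, Ccnd2, Cdk2 and Cdc25a and wholly above it for Ccne1, and for Cdk4 the circle of KD1 (71.0 FPKM) lies below all other libraries.

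**Figure D2:**
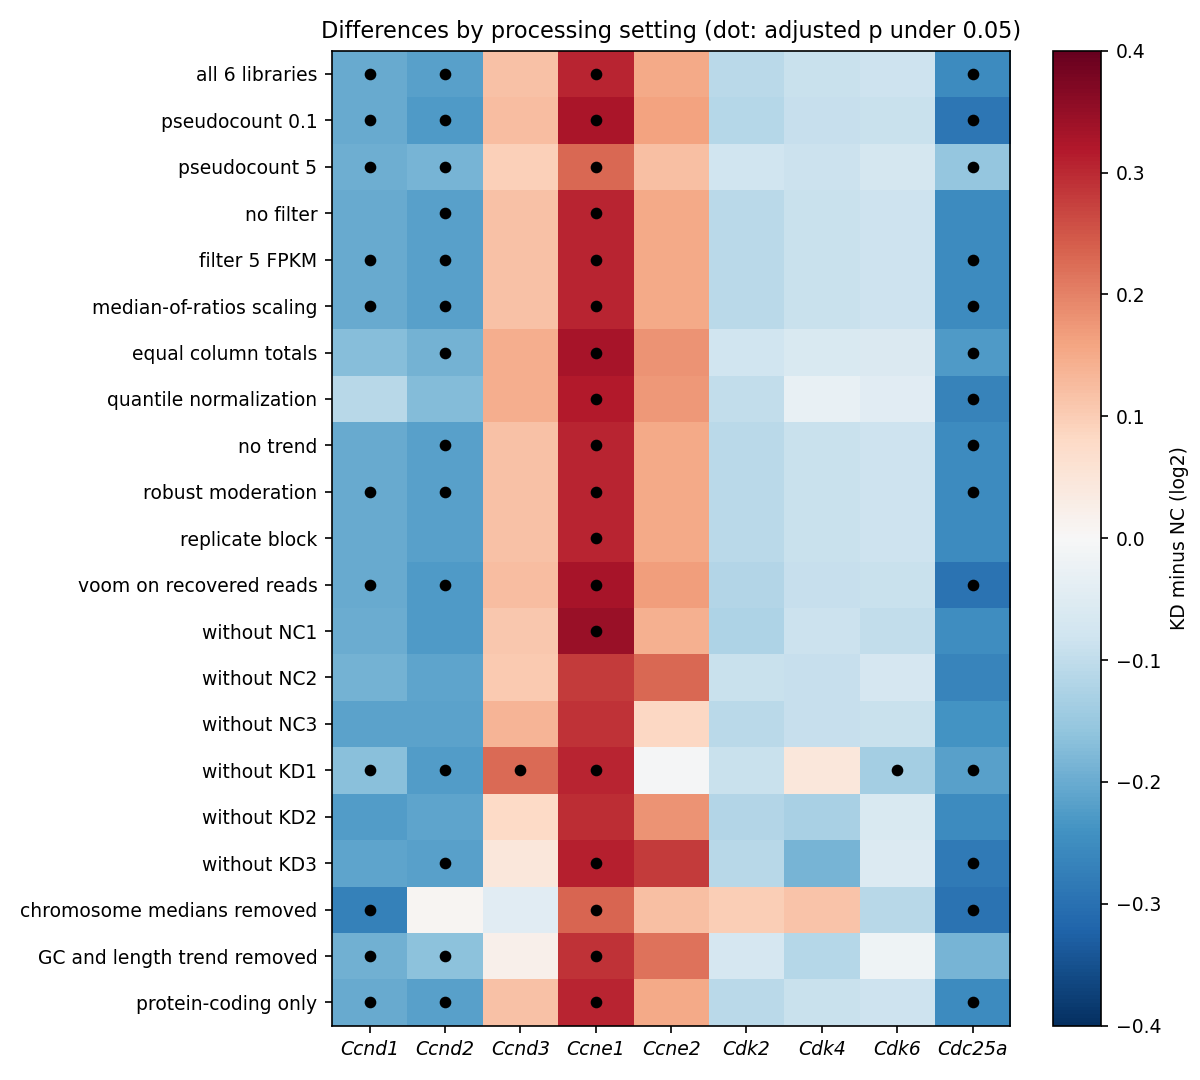
Difference KD minus NC in log2 units (colour, red for higher in KD) for each of the 9 genes (columns) under each processing setting (lines from top to bottom, beginning with all 6 libraries), with a dot where the limma adjusted p was under 0.05. Ccne1 carries a dot in 17 of the 20 alternatives and Ccnd1 in 10.

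Ccnd1, for cyclin D1, the D cyclin most closely tied to growth factor signalling in fibroblasts, was the most abundant of the 9 genes, above 97.9% of tested genes. It is on the minus strand of chromosome 7 at 144929931 to 144939925 (ENSMUSG00000070348, mm10). NC1, NC2 and NC3 had 148, 150.5 and 145 FPKM, and KD1, KD2 and KD3 had 123, 133 and 131 FPKM. Every KD library was below every NC library, and KD1 was the lowest. The group means were 148 ± 2.68 and 129 ± 5.20 FPKM (SD, n = 3 each), which differed by -0.20 as log2(FPKM + 1) (SE 0.05, 95% interval -0.33 to -0.07, limma adjusted p = 0.0371). The call was lost without NC1, NC2, NC3, KD2 or KD3, with limma adjusted p of 0.0566 to 0.152 and differences of -0.19 to -0.22, and kept without KD1 (-0.17, adjusted p = 0.0125). It was also lost with equal library totals (-0.17, adjusted p = 0.0714) or quantile normalization (-0.11, adjusted p = 0.184).

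Ccnd2, for cyclin D2, lies on chromosome 6 at 127125162 to 127152193 (minus strand), the chromosome that also carries Calu. It had 25.1, 25.7 and 25.6 FPKM in NC1, NC2 and NC3 and 22.0, 21.6 and 21.8 FPKM in KD1, KD2 and KD3. The groups did not overlap, and all 3 KD libraries were alike, KD1 included. The means were 25.5 ± 0.28 and 21.8 ± 0.21 FPKM (SD, n = 3), a log2 difference of -0.22 (SE 0.05, 95% interval -0.33 to -0.10, limma adjusted p = 0.0195). The call was lost without NC1, NC2, NC3 or KD2 (adjusted p = 0.0774 to 0.0954), with differences of -0.21 to -0.23.

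The tested genes of chromosome 6 had a median log2 difference of -0.22, the same as that of Ccnd2, and 34.3% of them were called lower against 4.18% higher. Within 5 Mb on either side of Ccnd2, 30 of 73 tested genes were lower and 2 higher, with a median of -0.30. When the median of each chromosome was subtracted in each library, Ccnd2 differed by 0.0068 (limma adjusted p = 0.936) and was no longer called.

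Ccnd3, for cyclin D3, the D cyclin expressed most widely across tissues, is on chromosome 17 at 47505051 to 47599691 (plus strand). It had 13.7, 13.6 and 14.3 FPKM in the NC libraries, and 12.9, 16.0 and 16.8 FPKM in KD1, KD2 and KD3. KD1 was the lowest of the 6 libraries while KD2 and KD3 were the highest. With all libraries the means were 13.9 ± 0.38 and 15.3 ± 2.08 FPKM (SD, n = 3), and the log2 difference of 0.12 (95% interval -0.12 to 0.35) did not pass limma (adjusted p = 0.431). Without KD1 it was 0.23 (SE 0.05, adjusted p = 0.012) and past the threshold. The tested genes of chromosome 17 had a median difference of 0.17, with 22.8% called higher and 3.83% lower, and with chromosome medians removed the value of Ccnd3 was -0.045 (adjusted p = 0.75).

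Summed over the 3 D cyclins the level was 187, 190 and 185 FPKM in NC1, NC2 and NC3 and 158, 170 and 169 FPKM in KD1, KD2 and KD3. Ccnd1 made up most of it in every library. The share of Ccnd1 was 79.0% ± 0.48 among NC libraries and 77.6% ± 0.43 among KD libraries (SD, n = 3). That of Ccnd3 was 7.43% ± 0.29 and 9.18% ± 0.91. A share is taken within a library, so the scaling between libraries cancels. The groups did not overlap for the Ccnd1 share or the Ccnd3 share. Each gave a two-sided exact permutation p = 0.1, the smallest that 3 against 3 allows, and a Benjamini-Hochberg adjusted p = 0.25 over the 5 shares tested. The Ccnd2 share was 13.6% ± 0.21 and 13.2% ± 0.68, with overlapping groups (exact permutation p = 0.4, adjusted p = 0.5). Its difference of -0.43 percentage points was -0.82 without KD1 and -0.18 without KD2.

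Cdk4, the partner of the D cyclins with the higher level here, is on chromosome 10 at 127063534 to 127067920 (plus strand). It had 92.0, 91.2 and 91.2 FPKM in NC1, NC2 and NC3, and 71.0, 90.5 and 98.3 FPKM in KD1, KD2 and KD3. The NC values were nearly identical, and the KD values fell on both sides of them. The means were 91.5 ± 0.44 and 86.6 ± 14.07 FPKM (SD, n = 3), and the log2 difference of -0.09 (95% interval -0.37 to 0.19) did not pass limma (adjusted p = 0.61). Without KD1 the sign turned, to 0.044 (95% interval -0.07 to 0.15, adjusted p = 0.459).

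Cdk6, the other D cyclin partner, has the longest gene of the 9, on chromosome 5 at 3341485 to 3531008 (plus strand). It had 21.2, 22.3 and 21.6 FPKM in the NC libraries and 22.0, 19.8 and 19.5 FPKM in KD1, KD2 and KD3. Here KD1 lay within the NC range and KD2 and KD3 lay below it. The difference of -0.08 (95% interval -0.24 to 0.07) did not pass limma with all libraries (adjusted p = 0.375), and without KD1 it was -0.14 (SE 0.04, adjusted p = 0.0382).

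Cdk4 made up 80.8% ± 0.43 of the summed Cdk4 and Cdk6 level among NC libraries and 80.6% ± 3.77 among KD libraries (SD, n = 3). In KD1 the share was 76.3%, below all other libraries, and in KD2 and KD3 it was 82.1% and 83.4%, above all of them (exact permutation p = 1). The difference between groups was -0.21 percentage points with all libraries and 1.93 points without KD1.

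Cdk2, the kinase bound by the E cyclins, is on the minus strand of chromosome 10 at 128697939 to 128705031. It had 12.1, 12.7 and 12.4 FPKM in the NC libraries and 11.2, 11.6 and 11.6 FPKM in KD1, KD2 and KD3. The groups did not overlap, but the difference of -0.11 (95% interval -0.23 to 0.02) did not pass limma (adjusted p = 0.188). Tested genes of chromosome 10, which carries both Cdk2 and Cdk4, had a median difference of -0.19, with 31.9% called lower and 3.36% higher. With chromosome medians removed the signs turned, to 0.10 for Cdk2 (limma adjusted p = 0.215) and 0.11 for Cdk4 (adjusted p = 0.513).

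**Figure D3:**
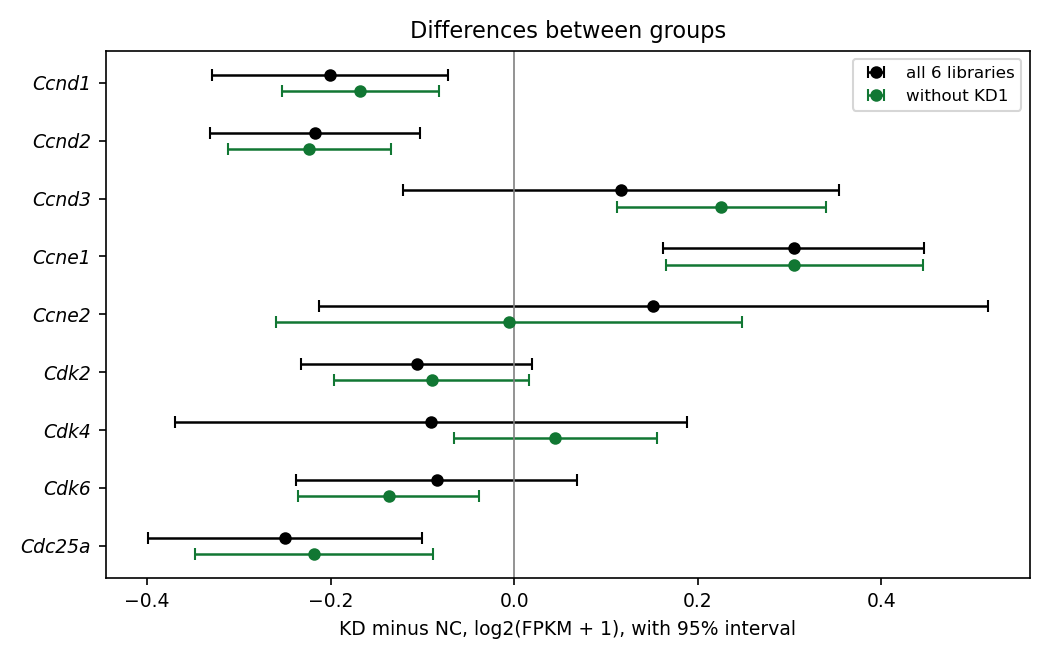
Difference KD minus NC in log2(FPKM + 1) (horizontal axis) for each gene, with its 95% interval from limma, for all 6 libraries (black) and without KD1 (green). Intervals of Ccnd1, Ccnd2, Ccne1 and Cdc25a exclude 0 in both, and those of Ccnd3 and Cdk6 do so only without KD1.

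Ccne1, for cyclin E1, was the only one of the 9 genes called higher with all libraries. It is on the minus strand of chromosome 7 at 38097984 to 38107534 (ENSMUSG00000002068). It had 11.0, 9.93 and 10.1 FPKM in NC1, NC2 and NC3 and 13.0, 13.1 and 12.9 FPKM in KD1, KD2 and KD3. Every KD library was above every NC library, with KD1 between KD2 and KD3. The means were 10.3 ± 0.59 and 13.0 ± 0.14 FPKM (SD, n = 3), a log2 difference of 0.30 (SE 0.06, 95% interval 0.16 to 0.45, limma adjusted p = 0.013). The reads behind them were 1316 in NC and 1797 in KD, and counting error alone gave 95% Poisson intervals of 9.79 to 10.9 and 12.4 to 13.6 FPKM. The call was kept without NC1, KD1 or KD3 and lost without NC2, NC3 or KD2 (adjusted p = 0.0594 to 0.0667, differences of 0.28 to 0.30). It was also kept with chromosome medians removed (0.23, adjusted p = 0.0453), where chromosome 7 had a median of 0.08.

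Ccne2, for cyclin E2, is on chromosome 4 at 11191351 to 11204779 (plus strand). It had 12.6, 14.3 and 11.6 FPKM in NC1, NC2 and NC3, and 18.0, 13.7 and 11.8 FPKM in KD1, KD2 and KD3. KD1 was the highest library, and KD2 and KD3 lay within the NC range. The means were 12.8 ± 1.40 and 14.5 ± 3.20 FPKM (SD, n = 3), with a log2 difference of 0.15 (95% interval -0.21 to 0.52, limma adjusted p = 0.506). Without KD1 it was -0.0059 (95% interval -0.26 to 0.25, adjusted p = 0.969). Ccne1 made up 44.7% ± 3.28 of the summed E cyclin level in NC and 47.6% ± 5.27 in KD (SD, n = 3, exact permutation p = 0.4), with overlapping groups. The difference of 2.91 percentage points was 5.81 without KD1, 1.02 without NC2 and 0.66 without KD3.

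Cdc25a, the phosphatase that relieves inhibition of Cdk2 and its relatives, had the lowest level of the 9 genes, and is on chromosome 9 at 109875579 to 109893895 (plus strand, ENSMUSG00000032477). It had 6.23, 6.08 and 6.34 FPKM in NC1, NC2 and NC3 and 4.80, 5.07 and 5.33 FPKM in KD1, KD2 and KD3. Every KD library was below every NC library. The means were 6.22 ± 0.13 and 5.07 ± 0.27 FPKM (SD, n = 3), a log2 difference of -0.25 (SE 0.06, 95% interval -0.40 to -0.10, limma adjusted p = 0.0296). The call was lost without NC1, NC2, NC3 or KD2 (adjusted p = 0.0924 to 0.112, differences of -0.24 to -0.26) and with a trend of GC content and gene length removed (-0.19, adjusted p = 0.107). With chromosome medians removed it was kept (-0.30, adjusted p = 0.0201), and chromosome 9 had a median of 0.05.

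Promoter windows of 250 bases before and 50 after the transcription start were taken from RefSeq (GRCm38.p6), which held 7 windows for 6 of the 9 genes: Ccnd3, Ccne1, Cdk2, Cdk4, Cdk6 and Cdc25a. Those of Ccne1 and Cdc25a are shown because both genes are known E2F targets and they were called in opposite directions. They are written 5′ to 3′ on the strand of the gene, with capitals for an E2F site.
Ccne1, chr7:38107441-38107740, minus strand: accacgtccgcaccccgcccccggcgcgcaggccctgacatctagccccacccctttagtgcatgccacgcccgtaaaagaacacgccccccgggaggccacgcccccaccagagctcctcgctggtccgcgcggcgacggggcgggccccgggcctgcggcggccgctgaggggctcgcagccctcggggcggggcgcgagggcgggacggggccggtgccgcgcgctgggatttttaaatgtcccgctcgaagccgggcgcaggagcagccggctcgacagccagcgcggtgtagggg
Cdc25a, chr9:109875329-109875628, plus strand: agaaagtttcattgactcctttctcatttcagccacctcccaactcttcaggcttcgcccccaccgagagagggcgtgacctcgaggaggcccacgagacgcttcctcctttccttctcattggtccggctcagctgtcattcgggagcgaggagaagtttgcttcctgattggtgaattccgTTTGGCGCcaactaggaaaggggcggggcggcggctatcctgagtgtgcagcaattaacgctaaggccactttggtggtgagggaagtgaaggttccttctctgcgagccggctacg
The E2F sites searched, on both strands, were TTTCCCGC, found in 1.07% of 32851 windows of the same length, and TTTGGCGC, found in 0.514%. TTTGGCGC lay at bases -67 to -60 from the start of Cdc25a, and the reverse complement of TTTCCCGC at bases -140 to -133 of Cdk2, and the other 5 windows held neither. An AP-1 site (TGANTCA, in 7.81% of all windows), the CRE forms TGACGTCA (1.79%) and TAACGTCA (0.244%) and the CHR element TTTGAA (17.9%) were each in 0 of the 7 windows. The Ccne1 window was 76% G and C and the Cdc25a window 56.7%, with a median of 52.7% over all windows.

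In order of mean level over the 6 libraries the genes were Ccnd1 (138 FPKM), Cdk4 (89.0), Ccnd2 (23.6), Cdk6 (21.1), Ccnd3 (14.6), Ccne2 (13.7), Cdk2 (11.9), Ccne1 (11.7) and Cdc25a (5.64). The ranges over libraries did not overlap between Ccnd1 and Cdk4, Cdk4 and Ccnd2, Cdk6 and Ccnd3, or Ccne1 and Cdc25a. Ccnd2 and Cdk6 overlapped, as did each neighbouring pair from Ccnd3 to Ccne1. Summed D cyclin mRNA exceeded the summed Cdk4 and Cdk6 mRNA in every library, by ratios of 1.64 to 1.67 in NC and of 1.69, 1.54 and 1.44 in KD1, KD2 and KD3. Each gene had between 420 and 11260 reads per library, so the counting half-width of a group sum was 1.08% to 5.44% of its level.

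The 9 genes differed in how far KD1 lay from the other KD libraries. The 2 genes with the lowest GC content were higher in KD1 and the 2 with the highest were lower. Ccne2, with the lowest GC content in its longest annotated transcript (36.3%), was higher in KD1 than in the mean of KD2 and KD3 by 0.47 on the log2(FPKM + 1) scale. Cdk6 (45.1% GC) was higher by 0.16. Ccnd3 (56.7% GC) and Cdk4 (53.3% GC) differed by -0.33 and -0.40, and Ccnd1, Ccnd2, Cdk2, Ccne1 and Cdc25a by -0.10 to 0.02. The GC content of these 5 ran from 46.0% (Cdc25a, which differed by -0.10) to 52.7% (Ccne1, by -0.0021). Cdc25a was thus near Cdk6 in GC content and Ccne1 near Cdk4, without their differences. The 4 genes called with all libraries were among these 5. A KD1 value close to KD2 and KD3 also narrows the spread that the test uses, so the calls are not independent of this grouping. Over all tested genes the same difference had a median of 0.25 for the 3071 genes lowest in GC content and of -0.24 for the 3071 highest, and the part of GC content in the results above was examined by removing its trend. The longest annotated transcript may not be the one in use. It has 1 exon for Cdk2, 2 for Ccnd3 and 4 for Cdc25a.

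**Figure D4:**
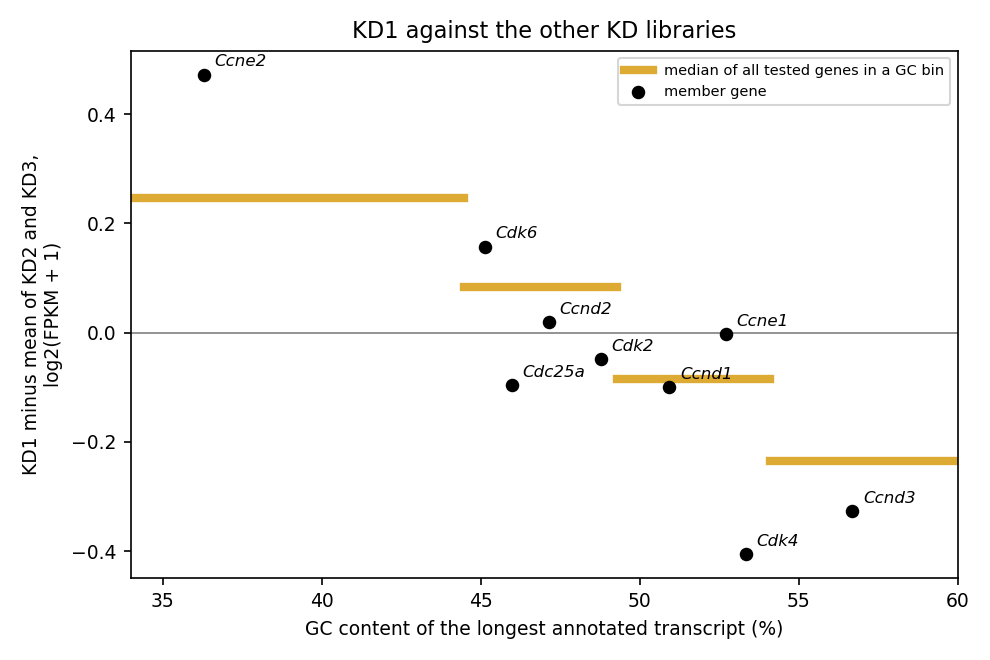
GC content of the longest annotated transcript (horizontal axis, percent) and the log2(FPKM + 1) level in KD1 minus the mean of KD2 and KD3 (vertical axis) for the 9 genes (points), with the median of all tested genes in each of 4 GC bins of equal size (horizontal lines, outer bins drawn to the axis limits). Ccne2 lies highest at 0.47 and Cdk4 lowest at -0.40, and the medians step down from 0.25 to -0.24.

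With the GC and length trend removed, Ccnd1 (-0.19, limma adjusted p = 0.00905), Ccnd2 (-0.16, adjusted p = 0.0247) and Ccne1 (0.29, adjusted p = 0.0114) were called. Ccne2 differed by 0.22 (adjusted p = 0.0576), Cdk4 by -0.11 (adjusted p = 0.298) and Ccnd3 by 0.02 (adjusted p = 0.776) in that fit. The 9 genes also differed in how they stood to their chromosomes. Measured from the median of the tested genes within 5 Mb, Ccnd1 lay at -0.36, Ccne1 at 0.32 and Cdc25a at -0.31, and the other genes lay between -0.11 and 0.12.

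**Figure D5:**
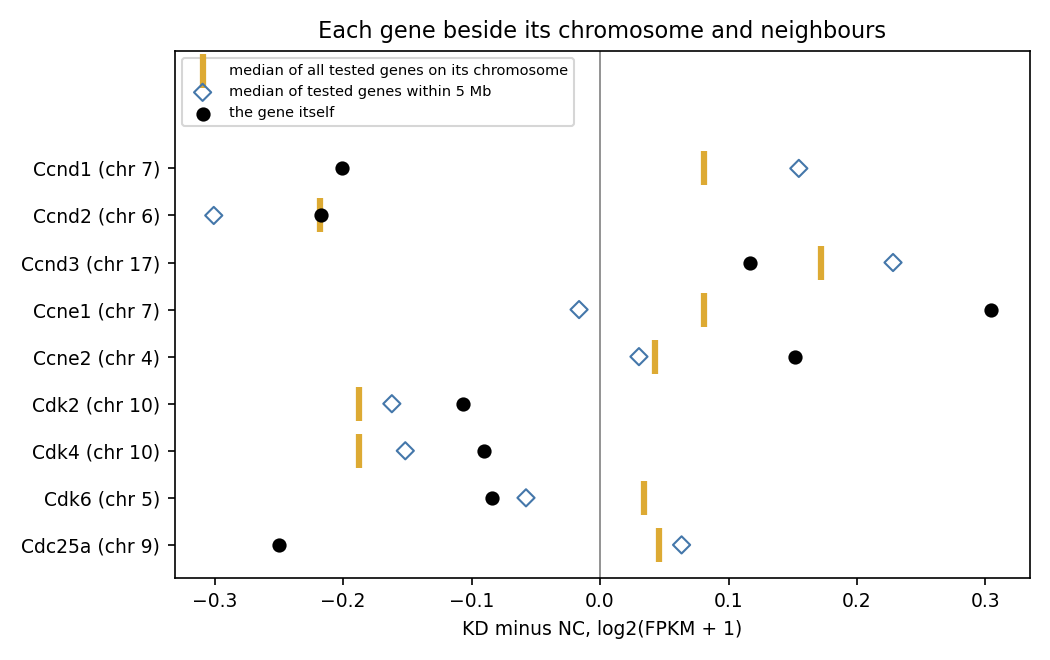
Difference KD minus NC in log2(FPKM + 1) for each of the 9 genes (black points), beside the median of tested genes on its chromosome (yellow bars) and of those within 5 Mb (open diamonds). Ccnd2 coincides with the median of chromosome 6 at -0.22, whereas Ccnd1, Ccne1 and Cdc25a lie away from both medians.

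The longest identical stretches between coding sequences in GENCODE M21 are shown for the pairs of relatives named with them, because a read placed wrongly between relatives would have to match both.
Ccnd1 and Ccnd2: ttcaagtgcgtgcagaagga
Cdk4 and Cdk6: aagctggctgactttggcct
Ccne1 and Ccne2: aaacttgaggaaatctac
These were 20, 20 and 18 bases long, and the other pairs of D cyclins or kinases shared 13 to 17 coding bases. Cdk2 and Cdk6 also shared a run of 19 bases that was not wholly coding, against 14 in their coding sequences. How many reads were placed on the wrong relative was not tested. The listed pseudogenes of Ccnd3 and Cdk6 had mean levels of 0.114 and 0.385 FPKM. Exons of genes on the opposite strand overlapped every one of the 9 genes except Ccne1 and Cdc25a. Tspan31 (31.0 FPKM) covered 19.7% of the length of Cdk4, Ints8 (13.9 FPKM) 17.4% of Ccne2, LTO1 (2.02 FPKM) 23.4% of Ccnd1 and Bysl (16.9 FPKM) 4.11% of Ccnd3. The strand setting of the counting is not given in the sources used here, so reads in these stretches cannot be told apart by strand. Tspan31, named after its values were seen, fell from 33.6 to 28.4 FPKM (log2 difference -0.24, limma adjusted p = 0.0298). It lies with Cdk4 on chromosome 10, where the median difference was -0.19 and 31.9% of tested genes were called lower.

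Genes that act with the cyclins and kinases were counted from lists chosen for their role, with earlier results of these data known. Their counts stand beside 10.9% of all tested genes called higher, 13.6% lower and 24.5% in either direction. Of 4 tested CDK inhibitor genes 2 rose and 0 fell: Cdkn2c, for the INK4 protein p18, rose from 36.3 ± 1.90 to 57.4 ± 9.29 FPKM (SD, n = 3, log2 difference 0.64, limma adjusted p = 0.012), and Cdkn2d, for the INK4 protein p19, from 22.0 to 30.6 FPKM (0.45, adjusted p = 0.00944). Cdkn2c had 46.7 FPKM in KD1 and 61.7 and 63.8 in KD2 and KD3, all above the NC libraries (34.1 to 37.8). The CIP/KIP genes Cdkn1a and Cdkn1b, named after their values were seen, did not pass. Cdkn1a had 10.1 FPKM in NC and 10.6 FPKM in KD (0.06, limma adjusted p = 0.459). Cdkn1b had 18.2 and 16.7 FPKM (-0.12, adjusted p = 0.31), and without KD1 it was called lower (-0.19, adjusted p = 0.0364). It lies on chromosome 6, and with chromosome medians removed its sign turned, to 0.10 (adjusted p = 0.406). With the GC and length trend removed it differed by -0.04 (adjusted p = 0.554). The remaining 3 inhibitor genes, Cdkn1c, Cdkn2a and Cdkn2b, averaged under 1 FPKM and were not tested. Of 13 retinoblastoma family, E2F and DP genes 1 rose and 0 fell, and this was Rbl2, for the pocket protein p130 (4.74 to 6.16 FPKM, log2 difference 0.32, adjusted p = 0.0312). Rb1, named after its values were seen, had 11.8 FPKM in NC and 8.74 FPKM in KD and did not pass (-0.40, limma adjusted p = 0.0553). It was called lower without KD1 (-0.52, adjusted p = 0.00765) and with the GC and length trend removed (-0.34, 0.0103). With chromosome medians removed it was not called (-0.21, adjusted p = 0.234). Of 22 E2F target genes of the G1/S transition 1 rose and 5 fell, with a median of 0.02 beside 0.01 for all tested genes, and the 6 called of 22 are near the share over all tested genes. The replicative helicase genes Mcm3 (69.4 to 55.3 FPKM, -0.33, adjusted p = 0.0288) and Mcm2 (40.9 to 32.5 FPKM, -0.33, adjusted p = 0.0186) fell, and Uhrf1, which helps maintain DNA methylation, rose (83.5 to 104 FPKM, 0.31, adjusted p = 0.0437). With chromosome medians removed, the calls of Rbl2 (0.16, adjusted p = 0.233), Mcm3 (-0.16, 0.268), Mcm2 (-0.10, 0.35) and Uhrf1 (0.14, 0.211) were lost, and those of Cdkn2c and Cdkn2d were kept. Mcm2 lies on chromosome 6 and Uhrf1 on chromosome 17.

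Of 10 tested regulators that relay growth signals to Ccnd1, 3 rose and 2 fell, with a median of -0.02. Myc, a growth-promoting transcription factor gene, fell from 75.1 ± 1.35 to 50.9 ± 1.59 FPKM (SD, n = 3, log2 difference -0.55, limma adjusted p = 0.000784), with no overlap between groups. The AP-1 gene Fosl1 fell from 47.5 to 32.9 FPKM (-0.53, adjusted p = 0.0159), and Tcf7l2, a transcription factor gene of the Wnt pathway, rose from 1.04 to 1.76 FPKM (0.43, adjusted p = 0.0197). Jun, another AP-1 gene, rose from 18.7 to 25.7 FPKM (0.42, adjusted p = 0.0336), and Ctnnb1 rose from 75.5 to 97.5 FPKM (0.36, adjusted p = 0.00333). Jun and Ctnnb1 were named after their values were seen. Of 16 ubiquitin ligase and deubiquitinase genes that act on G1 cyclins and Cdc25a 1 rose and 2 fell, with a median of 0.05, and the 3 called of 16 are not above the 24.5% over all tested genes. Cul1, the scaffold of SCF ligases, fell from 22.3 to 15.3 FPKM (-0.52, adjusted p = 0.00838) and lies on chromosome 6, Rbx1, its RING partner, fell from 20.3 to 17.3 FPKM (-0.22, adjusted p = 0.041), and Usp2, a deubiquitinase that acts on cyclin D1, rose from 2.91 to 4.04 FPKM (0.37, adjusted p = 0.0131). With chromosome medians removed, the calls of Cul1 (-0.30, adjusted p = 0.0582) and Rbx1 (-0.13, 0.156) were lost, and those of Myc, Fosl1, Tcf7l2 and Usp2 were kept. With the GC and length trend removed, that of Rbx1 was lost (-0.14, adjusted p = 0.267).

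Of 12 enzymes and cofactors that activate or restrain cyclin-dependent kinases 1 rose and 0 fell: Cdc25b, a relative of Cdc25a, rose from 34.5 ± 1.64 to 42.7 ± 0.25 FPKM (SD, n = 3, log2 difference 0.30, limma adjusted p = 0.0102), with no overlap between groups. Of 17 tested other cyclins 1 rose (Ccnl2, 0.46) and 1 fell (Ccnk, -0.27), and of 15 other cyclin-dependent kinases 1 rose (Cdk10, 0.46) and 2 fell (Cdk18, -0.50, and Cdk14, -0.23). Ccnl2 and Ccnk are known for roles in RNA processing and transcription. The call of Cdk10 was lost with chromosome medians removed (0.30, limma adjusted p = 0.0565), and with the GC and length trend removed that of Cdk14 (-0.16, 0.069). All these counts moved with single libraries. Without KD1, where 20.9% of all tested genes were called higher and 21.5% lower (42.4% in all), the higher and lower counts were 2 and 1 for inhibitors, 4 and 1 for the retinoblastoma and E2F list, 5 and 6 for E2F targets and 4 and 3 for the regulators of Ccnd1. They were then 4 and 4 for the ligases, 4 and 1 for the activating and restraining enzymes, 2 and 7 for other cyclins and 3 and 4 for other kinases. Leaving out NC1, NC2, NC3, KD2 or KD3 gave 1 to 2 higher inhibitors, 0 higher and 0 to 4 lower E2F targets, 1 higher and 1 to 2 lower regulators of Ccnd1, and at most 2 higher or 2 lower in the remaining lists. Calls over all tested genes fell in these fits too, to between 1513 (without NC2) and 2460 (without KD3), against 3016 with all libraries.

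Other processing moved the list counts as well. With the GC and length trend removed, 18.4% of all tested genes were called higher and 18.7% lower (37.1% in all), and the higher and lower counts were 4 and 4 for E2F targets, 4 and 1 for the ligases and 3 and 1 for the retinoblastoma and E2F list. Removing chromosome medians left 9.65% of all tested genes called higher and 11% lower (20.7% in all), and the counts were 0 and 2 for E2F targets, 2 and 0 for the ligases and 1 and 0 for the retinoblastoma and E2F list, where the gene called was not Rbl2. The inhibitors (2 and 0) and the regulators of Ccnd1 (3 and 2) had the same counts under both.

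The genes whose levels most resembled those of Ccnd1 over the 6 libraries, among 7452 protein-coding genes averaging 5 FPKM or more, were Eif3d (Pearson r = 0.998), Spg20 (0.998) and Rnpepl1 (0.996). For Ccne1 they were Tubgcp3 (r = 0.996), Sec24d (0.995) and Arhgap19 (0.995). With 2 groups of 3 libraries, a difference between the groups that genes share raises such correlations by itself. In all, 332 genes had r of at least 0.95 with Ccnd1 and 188 with Ccne1, so these are descriptions only.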

How the data were processed

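Total RNA gave paired-end reads that were aligned with HISAT2 2.0.5, per the labels' protocols, to mm10, per the submitters' processing notes. The authors deposited FPKM per gene with gene lengths. For the counting tool, strand setting and annotation, nothing was given in the sources used here. Multiplied by gene length, the FPKM of a library were whole multiples of 1 step (100% of values within 0.01), which gave back the reads per gene. Positions and lengths of the 9 genes were identical in GENCODE M21.

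Groups came from the titles. Limma 3.58.1 in R 4.3.3 was fitted to log2(FPKM + 1) with group as the only term and an intensity trend, over genes averaging 1 FPKM or more, with Benjamini-Hochberg adjustment over all 12299 genes and a threshold of 0.05. The pseudocount makes differences of low genes smaller. The code was tested on simulated data. Shares were compared by exact two-sided permutation. Intervals cover 95%, and Poisson intervals cover counting error only. Python 3.11.15 and pandas 2.3.3 were used for tables. The genes and lists were chosen with earlier results of these data known. Named genes were the 9, Calu, up to 3 called genes with the largest differences from each list, and the 3 genes most correlated with the most abundant and with the most changed called gene. Tspan31, Cdkn1a, Cdkn1b, Rb1, Jun and Ctnnb1 were named in addition, after their values were seen. Alternatives covered pseudocount, filter, scaling, moderation, a replicate block, voom on the recovered reads, leaving out each library, chromosome medians, GC content and length (splines with 5 degrees of freedom, GC known for 99.9% of tested genes) and protein-coding genes only.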

Additional observations from a re-analysis of the deposited data

How the results depend on the processing

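Ccne1 kept its direction in all 20 alternatives and its call in 17, Ccnd1 its direction in 20 and its call in 10, Cdc25a in 20 and 13, and Ccnd2 in 19 and 13. The count of lower genes among the 9 was 1 with no filter on low values, 1 with quantile normalization and 0 with the replicate block. Over all genes fitted, 8.88%, 24.4% and 19.8% were called in either direction under these settings, in that order. Without a filter Ccnd1 differed by -0.20 (limma adjusted p = 0.0752) and Cdc25a by -0.25 (0.0583), and without the intensity trend Ccnd1 by -0.20 (0.056). Ccnd1 differed by -0.17 (0.0714) with equal totals and by -0.11 (0.184) with quantile normalization, where Ccnd2 differed by -0.17 (0.0512). With chromosome medians removed the values turned to 0.0068 for Ccnd2, -0.045 for Ccnd3, 0.10 for Cdk2 and 0.11 for Cdk4. With the GC and length trend removed Cdc25a differed by -0.19 (0.107) and 4559 genes were called over the whole table. Equal totals moved the share of higher calls from 44.6% to 51.5% of all calls.

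With the replicate block Ccnd1 (-0.20, limma adjusted p = 0.0772), Ccnd2 (-0.22, 0.0613) and Cdc25a (-0.25, 0.0668) were not called and Ccne1 was. The labels do not say that numbers mark a shared culture or day. Deviations from the group means correlated by 0.08, -0.04 and 0.15 across genes for the libraries numbered 1, 2 and 3. Between libraries of unlike number they correlated by -0.16 to 0.08. With 3 libraries per group these correlations cannot show whether a number marks a shared origin, so the fits with and without the block are both given. The block gave 2433 calls against 3016.

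When each library was left out in turn, 0 to 2 of the 9 genes were higher and 0 to 4 lower, and 1513 (without NC2) to 5220 (without KD1) genes were called in all. Differences ranged from -0.22 to -0.17 for Ccnd1, -0.23 to -0.21 for Ccnd2, 0.045 to 0.23 for Ccnd3, 0.28 to 0.35 for Ccne1, -0.0059 to 0.28 for Ccne2, -0.19 to 0.044 for Cdk4, -0.14 to -0.054 for Cdk6 and -0.28 to -0.22 for Cdc25a. Without KD1, Ccne2 (-0.0059), Cdk4 (0.044) and the Cdk4 share (1.93 percentage points, lowest -1.62 without KD3) turned sign. Fewer samples are left in these fits, and the cause of the other changes was not tested.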
